A study of Mus musculus with 10 samples.

Results

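The aminoacyl-tRNA synthetase genes are the genes whose products load each amino acid onto its transfer RNA, the step that fixes which amino acid a codon is read as. They were chosen by name from the authors' expression table, as the genes with a protein-coding transcript type whose symbol has the form of a synthetase name (a letter for the amino acid followed by *ars*, with *Farsa*, *Farsb* and *Eprs*), and 37 of the 55359 genes of the table fit. The rule reads names and transcript types only. Of the 37, 17 carry a name ending in 2, which marks the enzymes that work inside mitochondria, and the other 20 are taken here as cytosolic. The RNA came from C2C12, a mouse myoblast cell line that fuses into myotubes when serum is withdrawn, treated with siRNA directed at *Fndc1* (si-*Fndc1*, 5 libraries) or with a control siRNA (si-Control, 5 libraries). *Fndc1* encodes a secreted protein with fibronectin type III domains that the study examined in muscle formation. The labels put both groups at 4 days of differentiation in medium with horse serum after 100 nM of siRNA, so that the groups share the cell line, the transfection and the differentiation and differ in the siRNA, whereas the series text counts the harvest from transfection. All libraries come from 1 cell line, and nothing says that the 5 libraries of a group were separate cultures, so that the p-values measure the spread between these libraries, which may be technical.

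Cytosolic and mitochondrial protein synthesis use largely separate sets of synthetases, all encoded in the nucleus, and a few genes provide the enzyme of both. The cytosolic enzymes supply the ribosomes that make nearly all cell protein, while the mitochondrial enzymes serve the few proteins of the respiratory chain that the mitochondrial genome encodes, and inherited defects of several of the latter affect muscle, heart or hearing. Synthetases fall into class I and class II by the fold of their catalytic domain, and in animal cells 8 of the cytosolic enzymes are held in a multisynthetase complex by scaffold proteins.

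Total counts ran from 66771605 to 75995168 in the si-Control libraries and from 56332844 to 72839369 in the si-*Fndc1* libraries, and the synthetase genes took 0.325% to 0.350% and 0.306% to 0.330% of it. The level of each gene is given in FPKM, the fragments counted on a gene divided by its length and the library size, as the authors deposited it. *Fndc1* itself had 27.8 ± 2.04 FPKM in si-Control and 20.9 ± 1.70 FPKM in si-*Fndc1* (SD, n = 5 each), and no library of one group reached into the other (p = 0.00794 by a two-sided exact permutation test, the lowest value that this number of libraries allows). Of the 10 myotube markers 4 rose (*Mylpf*, *Ckm*, *Tnnt1* and *Mymk*) and 0 fell, where 17.3% of all tested genes rose and 17.2% fell. Log2 fold changes were positive in 7 and negative in 3, *Myh3* (-0.17), *Myog* (-0.12) and *Tnnt3* (-0.05), none of these 3 called. The summed level of the 10 was 5592 to 5913 FPKM in si-Control and 5956 to 6699 FPKM in si-*Fndc1*. Much of this difference was *Mylpf*, with means of 1971 FPKM in si-Control and 2619 FPKM in si-*Fndc1*. Of the 3 myoblast markers 1 rose (*Myod1*), of the 10 genes of proliferation 2 rose (*Ccna2* and *Cdk1*), and 0 of either fell. Of 16 liver transcripts such as albumin and the apolipoproteins, 15 were tested and 15 rose. Their summed level was 1.16 to 7.69 FPKM in the si-Control libraries and 106.1, 191.5, 185.3, 186.0 and 55.2 FPKM in si-*Fndc1* libraries 1 to 5. This liver signal separated the same groups as every difference given here, so that the design cannot tell them apart, and its part in them was not tested. In bulk RNA, fewer cells of a type and less RNA per cell cannot be told apart.

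Changes were tested on the authors' counts by the quasi-likelihood method of edgeR, with p-values adjusted after Benjamini and Hochberg over the 13548 genes with a mean of at least 0.5 FPKM, and a gene was called at an adjusted p-value under 0.05. All 37 synthetase genes were tested. Of the 20 cytosolic genes, 3 rose, 7 fell and 10 were not called, where 17.3% of all tested genes rose and 17.2% fell. Of the 17 mitochondrial genes, 4 rose, 1 fell and 12 were not called. The genes that rose were *Farsb*, *Dars* and *Tars* in the cytosolic set and *Yars2*, *Nars2*, *Iars2* and *Rars2* in the mitochondrial set. Those that fell were the cytosolic *Vars*, *Sars*, *Mars1*, *Farsa*, *Aars*, *Iars* and *Kars* and the mitochondrial *Vars2*. Every called change was small, from -0.47 to 0.42 on the log2 scale. The median log2 fold change was -0.07 over the cytosolic genes (15 negative, 5 positive), -0.03 over the mitochondrial genes (9 negative, 8 positive) and 0.00 over all tested genes. Group ranges of FPKM were separate in 10 of the 37 genes, where 25.1% of all tested genes showed such a separation. As shares, 15.0% of the cytosolic genes rose and 35.0% fell, and 23.5% of the mitochondrial genes rose and 5.88% fell. The difference between the compartments was not tested, because genes are not replicates of a condition.

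**Figure D1:**
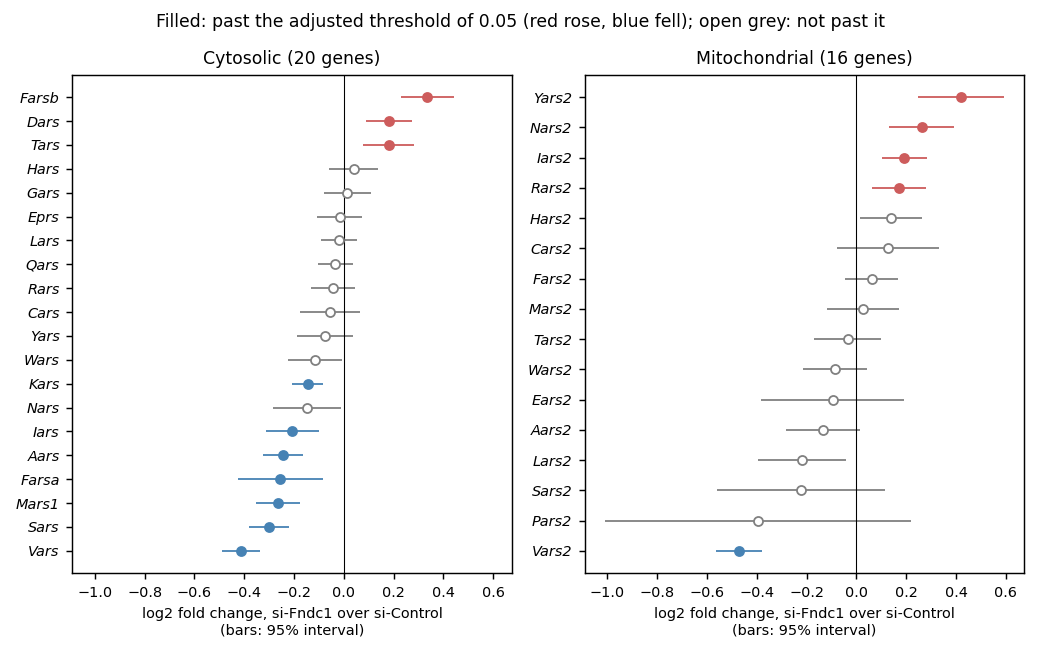
Log2 fold change of synthetase genes, si-Fndc1 over si-Control, for the 20 cytosolic (left) and 16 of the 17 mitochondrial genes (right). Bars are the approximate 95% interval. Filled red points rose and filled blue points fell at an adjusted p-value under 0.05 in edgeR's quasi-likelihood test, and open grey points did not pass it: 3 rose and 7 fell on the left, 4 rose and 1 fell on the right.

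Fold changes across the whole data set fell with the GC content of the transcript, and the synthetase genes followed this. When GC content and length were corrected for inside every library, which could be done for 11185 genes, 1 cytosolic gene was called higher (*Tars*) and 7 lower (*Vars*, *Sars*, *Mars1*, *Kars*, *Iars*, *Nars* and *Rars*). In the mitochondrial set 4 were called higher (*Yars2*, *Iars2*, *Cars2* and *Fars2*) and 1 lower (*Vars2*). Under the correction 12.2% of genes were called higher and 10.3% lower. The log2 fold change of *Fndc1* was -0.40 without it (adjusted p = 0.000934) and -0.21 with it (adjusted p = 0.0128), and of the myotube markers 3 were called higher and 1 lower (*Myog*, -0.17, adjusted p = 0.0294, against -0.12 and 0.137 without it). The genes called in the same direction with and without it were thus *Tars*, *Vars*, *Sars*, *Mars1*, *Kars* and *Iars* of the cytosolic set and *Yars2*, *Iars2* and *Vars2* of the mitochondrial set, and the corrected value is given below for each gene whose call it changed.

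The cytosolic genes that fell were led by *Vars*, which encodes valyl-tRNA synthetase (ENSMUSG00000007029, chromosome 17 from 35219963 to 35235298, plus strand). *Vars* had 16.4, 15.9, 17.2, 16.5 and 15.9 FPKM in si-Control libraries 1 to 5 and 12.7, 12.9, 11.4, 12.3 and 11.9 FPKM in si-*Fndc1* libraries 1 to 5. All 5 si-*Fndc1* libraries were below the lowest of si-Control. The level fell from a mean of 16.4 ± 0.513 to 12.2 ± 0.598 FPKM (SD, n = 5 per group), with a log2 fold change of -0.41 (SE 0.04, edgeR adjusted p = 3.88e-05), and the corrected log2 fold change was -0.12 (adjusted p = 0.0203), so that the call was kept at a smaller size. *Sars*, seryl-tRNA synthetase (ENSMUSG00000068739, chromosome 3 from 108332181 to 108352525, minus strand), had 65.6, 68.5, 64.9, 67.9 and 62.3 FPKM in si-Control libraries 1 to 5 and 52.1, 49.4, 54.0, 56.4 and 54.2 FPKM in si-*Fndc1* libraries 1 to 5. The groups were again apart, and *Sars* fell from a mean of 65.8 ± 2.48 to 53.2 ± 2.63 FPKM (SD, n = 5 per group), with a log2 fold change of -0.30 (SE 0.04, edgeR adjusted p = 0.000318). *Mars1*, methionyl-tRNA synthetase of the multisynthetase complex (ENSMUSG00000040354, chromosome 10 from 127132090 to 127147655, minus strand), had 42.0, 40.8, 41.6, 40.8 and 37.9 FPKM in si-Control libraries 1 to 5 and 33.4, 34.4, 34.2, 35.4 and 30.8 FPKM in si-*Fndc1* libraries 1 to 5. Its groups did not overlap, with library 5 the lowest of both, and it fell from a mean of 40.6 ± 1.62 to 33.6 ± 1.74 FPKM (SD, n = 5 per group), with a log2 fold change of -0.26 (SE 0.04, edgeR adjusted p = 0.00116). *Sars* and *Mars1* were called under all 20 alternative settings. *Mars1* overlaps *Ddit3* on the opposite strand by 68 bases, and whether the counting used strand is not stated. *Ddit3*, a stress-induced transcription factor, is listed on 2 rows. The row that overlaps *Mars1* had 25.2% of the mean counts of *Mars1* and a log2 fold change of -0.14 (adjusted p = 0.378).

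*Aars*, alanyl-tRNA synthetase (ENSMUSG00000031960, chromosome 8 from 111759776 to 111773375, plus strand), had 31.2, 30.1, 29.5, 30.3 and 28.0 FPKM in si-Control libraries 1 to 5 and 25.5, 23.9, 25.2, 26.7 and 23.9 FPKM in si-*Fndc1* libraries 1 to 5. All si-*Fndc1* libraries lay below the lowest si-Control library. The level fell from a mean of 29.8 ± 1.18 to 25.0 ± 1.18 FPKM (SD, n = 5 per group), with a log2 fold change of -0.24 (SE 0.04, edgeR adjusted p = 0.00116), but with the correction for GC content and length the log2 fold change was 0.02 (adjusted p = 0.869), and the call was lost. *Kars* encodes lysyl-tRNA synthetase, a member of the complex whose single gene also serves mitochondria through splicing, and it had the smallest called fall. *Kars* fell from a mean of 33.5 ± 0.582 to 30.1 ± 0.980 FPKM (SD, n = 5 per group), with a log2 fold change of -0.15 (SE 0.03, edgeR adjusted p = 0.00514), and its groups did not overlap. *Iars*, the isoleucine enzyme of the complex, fell from a mean of 24.5 ± 1.74 to 21.2 ± 1.16 FPKM (SD, n = 5 per group), with a log2 fold change of -0.21 (SE 0.05, edgeR adjusted p = 0.0138). The groups overlapped for *Iars*, since si-*Fndc1* library 2 at 23.0 FPKM lay above si-Control library 2 at 22.8 FPKM.

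Phenylalanyl-tRNA synthetase is the only cytosolic synthetase built from separately encoded subunits, and its subunit genes were called in opposite directions. *Farsb* encodes the beta subunit (ENSMUSG00000026245, chromosome 1 from 78394612 to 78465534, minus strand) and had 14.8, 13.3, 12.7, 13.5 and 14.3 FPKM in si-Control libraries 1 to 5 and 16.7, 16.0, 17.0, 18.7 and 17.6 FPKM in si-*Fndc1* libraries 1 to 5. Every si-*Fndc1* library lay above every si-Control library. *Farsb* rose from a mean of 13.7 ± 0.809 to 17.2 ± 1.01 FPKM (SD, n = 5 per group), with a log2 fold change of 0.34 (SE 0.05, edgeR adjusted p = 0.000912), the largest rise of the cytosolic set, and after the correction it was 0.14 (adjusted p = 0.0648) and no longer called. *Farsa*, the alpha subunit gene (ENSMUSG00000003808, chromosome 8 from 85583618 to 85595886, plus strand), had 14.5, 13.7, 14.6, 13.4 and 18.0 FPKM in si-Control libraries 1 to 5 and 14.3, 11.1, 12.1, 12.4 and 11.9 FPKM in si-*Fndc1* libraries 1 to 5. Its si-Control library 5 stood far above the other libraries of its group, and the groups overlapped. *Farsa* fell from a mean of 14.8 ± 1.83 to 12.4 ± 1.18 FPKM (SD, n = 5 per group), with a log2 fold change of -0.25 (SE 0.09, edgeR adjusted p = 0.0432). The call of *Farsa* was close to the threshold: it was lost when si-Control library 1, 3 or 5 or si-*Fndc1* library 2, 3, 4 or 5 was left out (adjusted p = 0.0660 to 0.0901), the value without si-Control library 5 was -0.18, and with the correction it was -0.25 (adjusted p = 0.0600). The ratio of *Farsb* to *Farsa* FPKM, which depends on the length used for each gene but compares within a library, was 0.933 ± 0.0975 in si-Control and 1.40 ± 0.136 in si-*Fndc1* (SD, n = 5 each). It ran from 0.796 to 1.02 and from 1.17 to 1.51, without overlap. The ratio sets a gene called higher over one called lower. It also carries the GC content of both genes, 45.2% for *Farsb* and 49.4% for *Farsa*. It was not tested, and the share of such separations was not computed for ratios of genes.

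**Figure D2:**
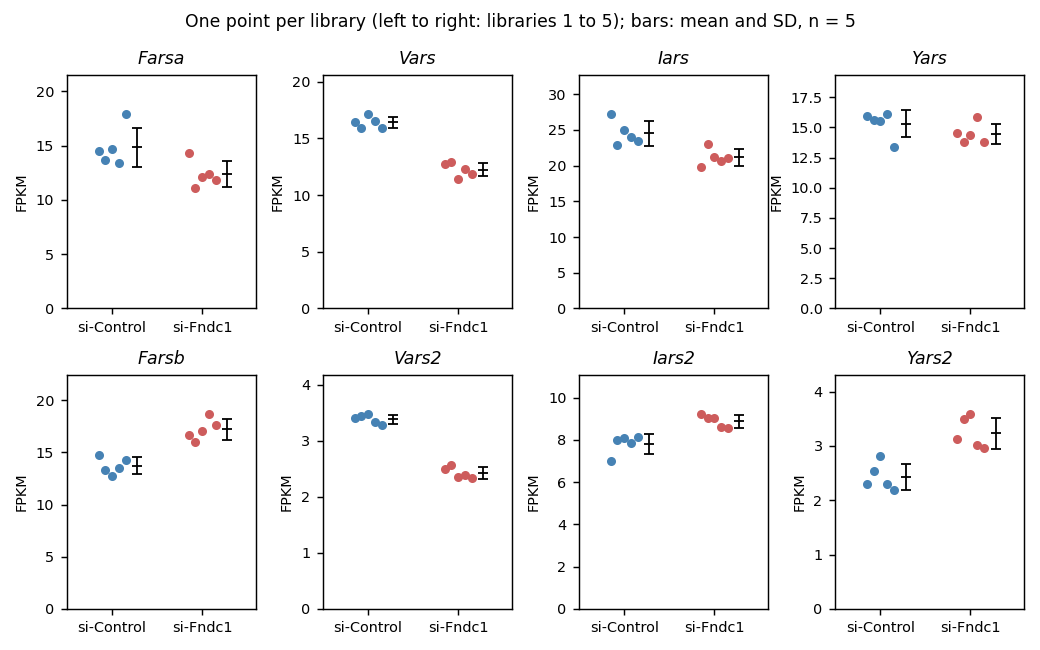
FPKM of 8 synthetase genes in each library, with the mean and SD (n = 5) beside the points and axes that start at 0. The upper row holds Farsa, Vars, Iars and Yars and the lower row Farsb, Vars2, Iars2 and Yars2. The groups lie apart for Farsb, Vars, Vars2, Iars2 and Yars2 and overlap for Farsa, Iars and Yars.

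The other cytosolic genes that rose were *Dars* and *Tars*. *Dars*, the aspartate enzyme of the complex, rose from a mean of 27.9 ± 1.36 to 31.5 ± 1.89 FPKM (SD, n = 5 per group), with a log2 fold change of 0.18 (SE 0.05, edgeR adjusted p = 0.0115). Its si-Control library 2 at 30.3 FPKM lay above si-*Fndc1* library 2 at 28.5 FPKM and below the other si-*Fndc1* libraries, and with the correction its log2 fold change was -0.00 (adjusted p = 0.965). *Tars*, threonyl-tRNA synthetase, rose from a mean of 27.2 ± 1.74 to 30.7 ± 1.72 FPKM (SD, n = 5 per group), with a log2 fold change of 0.18 (SE 0.05, edgeR adjusted p = 0.0200), and it was the only cytosolic rise still called after the correction (0.19, adjusted p = 0.0359).

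The remaining 10 cytosolic genes were not called. *Gars*, glycyl-tRNA synthetase, whose single gene provides the enzyme of both compartments, was the most abundant of all synthetase genes and had 75.5, 79.8, 74.5, 78.8 and 66.7 FPKM in si-Control libraries 1 to 5 and 75.9, 73.4, 74.9, 79.5 and 73.2 FPKM in si-*Fndc1* libraries 1 to 5. The groups overlapped almost wholly, and the log2 fold change was 0.01 (approximate 95% interval -0.08 to 0.11). *Wars*, tryptophanyl-tRNA synthetase, was the least abundant cytosolic gene and had 11.6, 10.9, 10.9, 10.5 and 10.2 FPKM in si-Control libraries 1 to 5 and 9.69, 10.7, 9.16, 10.5 and 9.59 FPKM in si-*Fndc1* libraries 1 to 5. Its log2 fold change was -0.12 (approximate 95% interval -0.23 to -0.01). The edgeR test gave an unadjusted p of 0.0636 and an adjusted p of 0.136. *Nars*, the asparagine enzyme, had 52.8 ± 4.76 and 47.4 ± 3.80 FPKM in si-Control and si-*Fndc1* (SD, n = 5 each). Its log2 fold change of -0.15 (adjusted p = 0.130) became -0.21 after the correction (adjusted p = 0.0492). *Rars*, the arginine enzyme of the complex, had 37.4 ± 1.52 and 36.1 ± 2.15 FPKM, and likewise passed the threshold only with the correction (-0.18, adjusted p = 0.00550, against -0.04 and 0.492 without it). The other 6, *Yars*, *Qars*, *Cars*, *Hars*, *Lars* and the bifunctional glutamate and proline enzyme gene *Eprs*, had log2 fold changes from -0.08 to 0.04 and adjusted p-values of at least 0.335. *Yars* overlaps *C77080* on the opposite strand by 30 bases, a more heavily counted gene that fell (log2 fold change -0.29, adjusted p = 9.35e-05), and reads of the overlap cannot be assigned without strand.

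By position in the cell, the 8 cytosolic genes of the multisynthetase complex gave 1 rise and 3 falls, and the 12 outside it 2 rises and 4 falls, beside the 17.3% and 17.2% of all tested genes that rose and fell. By catalytic class, the 9 class I cytosolic genes gave 0 rises and 3 falls (*Vars*, *Mars1* and *Iars*). Their log2 fold change was negative in 9 of 9, beside 6679 of the 13548 tested genes, with a median of -0.08. The 10 genes of class II gave 3 rises and 4 falls, with 5 positive and 5 negative and a median of -0.07. *Eprs*, which belongs to both classes, was left out of this split. With GC content and length corrected for, *Yars* (0.03), *Qars* (0.03) and *Cars* (0.08) of class I were positive, and the medians of class I and II were -0.06 and -0.02. Of the 3 scaffold genes of the complex, 1 rose and 0 fell. *Aimp2* rose from a mean of 13.8 ± 0.610 to 15.5 ± 0.656 FPKM (SD, n = 5 per group), with a log2 fold change of 0.18 (SE 0.05, edgeR adjusted p = 0.0196), while *Aimp1* at 8.71 ± 0.334 and 9.64 ± 0.796 FPKM (log2 fold change 0.15, adjusted p = 0.0550) and *Eef1e1* at 6.02 ± 0.644 and 6.73 ± 0.480 FPKM (0.17, adjusted p = 0.129) were not called. After the correction none of the 3 was called, with *Aimp2* at 0.12 (adjusted p = 0.0855).

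In the mitochondrial set, *Vars2* was the only gene that fell and had the largest change of all synthetase genes past the threshold. *Vars2*, the mitochondrial valyl-tRNA synthetase (ENSMUSG00000038838, chromosome 17 from 35966526 to 35978484, minus strand), had 3.40, 3.44, 3.48, 3.33 and 3.27 FPKM in si-Control libraries 1 to 5 and 2.50, 2.57, 2.35, 2.38 and 2.33 FPKM in si-*Fndc1* libraries 1 to 5. Every si-*Fndc1* library lay below the lowest si-Control library, by more than the range within either group. It fell from a mean of 3.38 ± 0.0819 to 2.42 ± 0.105 FPKM (SD, n = 5 per group), with a log2 fold change of -0.47 (SE 0.05, edgeR adjusted p = 5.29e-05). The corrected log2 fold change was -0.23 (adjusted p = 0.00370). *Vars2* was called under all 19 alternative settings that tested it.

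*Yars2*, the mitochondrial tyrosyl-tRNA synthetase, whose inherited defects cause a myopathy with anemia (ENSMUSG00000022792, chromosome 16 from 16120829 to 16127496, plus strand), showed the largest rise. *Yars2* had 2.30, 2.54, 2.81, 2.31 and 2.19 FPKM in si-Control libraries 1 to 5 and 3.14, 3.49, 3.59, 3.02 and 2.96 FPKM in si-*Fndc1* libraries 1 to 5. The groups did not overlap, the highest si-Control library being library 3. It rose from a mean of 2.43 ± 0.247 to 3.24 ± 0.286 FPKM (SD, n = 5 per group), with a log2 fold change of 0.42 (SE 0.09, edgeR adjusted p = 0.00401), and by 0.29 after the correction (adjusted p = 0.0384). *Iars2*, the isoleucine enzyme and the most abundant mitochondrial synthetase gene (ENSMUSG00000026618, chromosome 1 from 185016923 to 185061593, minus strand), had 6.99, 8.02, 8.08, 7.87 and 8.15 FPKM in si-Control libraries 1 to 5 and 9.24, 9.03, 9.03, 8.59 and 8.56 FPKM in si-*Fndc1* libraries 1 to 5. The groups were apart, and the gene rose from a mean of 7.82 ± 0.478 to 8.89 ± 0.300 FPKM (SD, n = 5 per group), with a log2 fold change of 0.19 (SE 0.05, edgeR adjusted p = 0.00809). It was called in all 20 alternatives. *Iars2* overlaps *Rab3gap2* on the opposite strand by 2034 bases, and that neighbour was not called (log2 fold change -0.12, adjusted p = 0.0993). *Rab3gap2* had 128% of the mean counts of *Iars2*, and reads of the overlap cannot be assigned without strand.

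*Nars2*, the asparagine enzyme (ENSMUSG00000018995, chromosome 7 from 96600712 to 96713965, plus strand), had 2.14, 2.44, 2.34, 2.24 and 2.44 FPKM in si-Control libraries 1 to 5 and 2.61, 2.77, 2.86, 2.50 and 3.11 FPKM in si-*Fndc1* libraries 1 to 5. Each si-*Fndc1* library exceeded each si-Control library. *Nars2* rose from a mean of 2.32 ± 0.129 to 2.77 ± 0.234 FPKM (SD, n = 5 per group), with a log2 fold change of 0.26 (SE 0.07, edgeR adjusted p = 0.0108), and the correction left 0.19 (adjusted p = 0.0709), past the threshold no longer. *Rars2*, the arginine enzyme (ENSMUSG00000028292, chromosome 4 from 34614957 to 34660167, plus strand), had 5.64, 6.68, 5.93, 6.09 and 6.03 FPKM in si-Control libraries 1 to 5 and 6.46, 7.13, 6.95, 6.71 and 6.79 FPKM in si-*Fndc1* libraries 1 to 5. Its si-Control library 2 reached into the range of si-*Fndc1*, and it rose from a mean of 6.07 ± 0.379 to 6.81 ± 0.253 FPKM (SD, n = 5 per group), with a log2 fold change of 0.17 (SE 0.06, edgeR adjusted p = 0.0339). This was the least stable mitochondrial call. It was lost without si-Control library 1, 3, 4 or 5 or without si-*Fndc1* library 2, 3, 4 or 5 (log2 fold change 0.15 to 0.18, adjusted p = 0.0521 to 0.0774), and the corrected value was -0.03 (adjusted p = 0.691).

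Of the 12 mitochondrial genes that were not called, *Pars2*, the proline enzyme, was the least abundant of all synthetase genes and had 1.15, 0.447, 1.18, 0.988 and 0.981 FPKM in si-Control libraries 1 to 5 and 0.839, 0.451, 0.792, 1.08 and 0.408 FPKM in si-*Fndc1* libraries 1 to 5. The libraries of both groups spread widely, and the approximate 95% interval of its log2 fold change of -0.39 ran from -1.01 to 0.22. A change of the size seen in *Vars2* could thus not be detected for *Pars2*. *Lars2*, the leucine enzyme, had 1.42 ± 0.154 and 1.22 ± 0.136 FPKM in si-Control and si-*Fndc1* (SD, n = 5 each). The fitted log2 fold change of *Lars2* was -0.22 (adjusted p = 0.0847). Without si-*Fndc1* library 5 it was -0.29 and called (adjusted p = 0.0230). *Hars2*, the histidine enzyme, had 3.57 ± 0.212 and 3.91 ± 0.285 FPKM (0.14, adjusted p = 0.117). It overlaps *Hars*, which had 396% of its mean counts, on the other strand by 198 bases. *Cars2* and *Fars2*, the cysteine and phenylalanine enzymes, were at 1.11 ± 0.132 and 1.21 ± 0.149 FPKM and at 2.07 ± 0.0970 and 2.15 ± 0.105 FPKM. They had log2 fold changes of 0.13 and 0.06 and were called higher only with the correction (0.34, adjusted p = 0.0232, and 0.26, adjusted p = 0.0110). Each overlaps a neighbour on the opposite strand, *Cars2* sharing 984 bases with *Naxd* (log2 fold change -0.02, adjusted p = 0.733) and *Fars2* 115 bases with *Lyrm4*, which rose (0.48, adjusted p = 0.000773). *Naxd* had 458% of the mean counts of *Cars2* and *Lyrm4* 66.2% of those of *Fars2*. A further 6, *Aars2*, *Wars2*, *Sars2*, *Ears2*, *Tars2* and *Mars2*, had log2 fold changes from -0.22 to 0.03 and adjusted p-values of at least 0.203.

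Mean levels in FPKM separated the compartments in both groups, while single libraries met at the edge, *Iars2* reaching 9.24 FPKM and *Wars* going down to 9.16 FPKM. The si-Control means ran from 10.8 FPKM (*Wars*) to 75.1 FPKM (*Gars*) in the cytosolic set and from 0.949 FPKM (*Pars2*) to 7.82 FPKM (*Iars2*) in the mitochondrial set. In order, *Gars*, *Sars* and *Nars* led the cytosolic genes, followed by *Mars1*, *Rars*, *Kars* and *Aars*, and *Iars2* and *Rars2* led the mitochondrial genes. The rest of the mitochondrial genes lay at 3.95 FPKM or less, where *Lars2*, *Sars2*, *Mars2*, *Ears2*, *Wars2* and *Cars2* had means from 1.42 to 1.11 FPKM, and each of them overlapped in range with the next in this order. These levels divide by a gene length that the authors set. The length implied by count and FPKM reached 20130 bases for *Eprs*. The summed level of the cytosolic genes was 542.3 to 591.0 FPKM in si-Control and 509.8 to 558.2 FPKM in si-*Fndc1*, and 4 of the 5 si-*Fndc1* libraries were under the whole si-Control range. That of the mitochondrial genes was 45.1 to 47.0 FPKM and 45.8 to 47.8 FPKM, and the ranges overlapped.

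**Figure D3:**
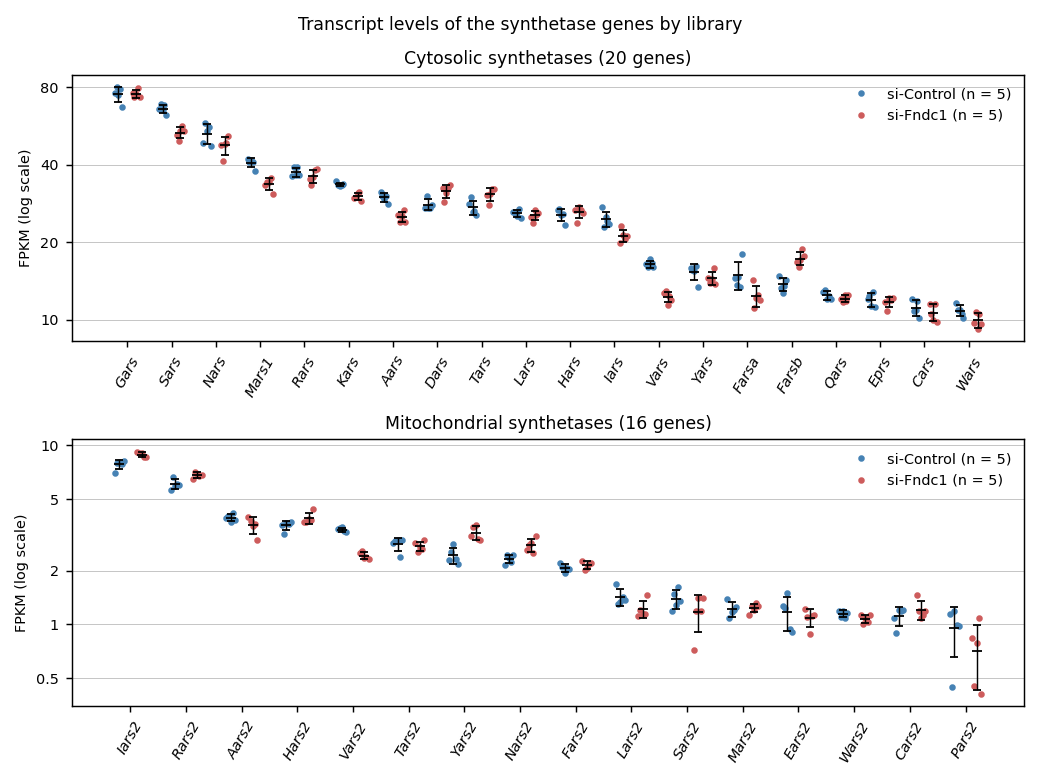
FPKM of 20 cytosolic and 16 mitochondrial synthetase genes in each library on a log axis, ordered by the si-Control mean, with the mean and SD (n = 5) as black bars. The cytosolic genes (upper panel) had si-Control means from 10.8 to 75.1 FPKM and the mitochondrial genes (lower panel) from 0.949 to 7.82 FPKM.

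For 14 amino acids a cytosolic gene was set beside a mitochondrial one, which gave 15 pairs because phenylalanine has *Farsa* and *Farsb* against *Fars2*. *Kars* and *Gars* serve both compartments, *Qars* has no mitochondrial partner here, and the glutamate and proline enzymes share *Eprs* in the cytosol. In si-Control the cytosolic gene had 3.14 (isoleucine) to 47.5 (serine) times the FPKM of its partner, with a median of 7.55. The log2 fold change of the cytosolic gene was below that of its partner in 11 of the 15 pairs. Both genes were called in 2 pairs. For isoleucine they were called in opposite directions, *Iars* at -0.21 and *Iars2* at 0.19, and the ratio of *Iars* to *Iars2* FPKM was 2.85 to 3.91 in the si-Control libraries and 2.15 to 2.55 in the si-*Fndc1* libraries. For valine both fell, *Vars* at -0.41 and *Vars2* at -0.47, and their ratio was 4.64 to 4.96 and 4.88 to 5.16, with overlap.

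The within-library ratio of cytosolic to mitochondrial FPKM was lower in every si-*Fndc1* library than in every si-Control library for 5 pairs, higher for 1 and overlapping for 9. The lower ones were isoleucine, tyrosine, arginine, methionine and, with *Farsa*, phenylalanine. The higher one was phenylalanine with *Farsb*. For tyrosine the *Yars* to *Yars2* ratio ran from 5.51 to 7.00 in the si-Control libraries and from 3.96 to 5.25 in the si-*Fndc1* libraries. No test was made over these ratios, because the pairs share their libraries and the ratio carries the GC content of both genes. Among single tested genes, 25.1% had group ranges of FPKM that were separate, in either direction. A share of this kind was not computed for ratios of genes, so whether the counts of separate pairs are unusual was not tested.

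**Figure D4:**
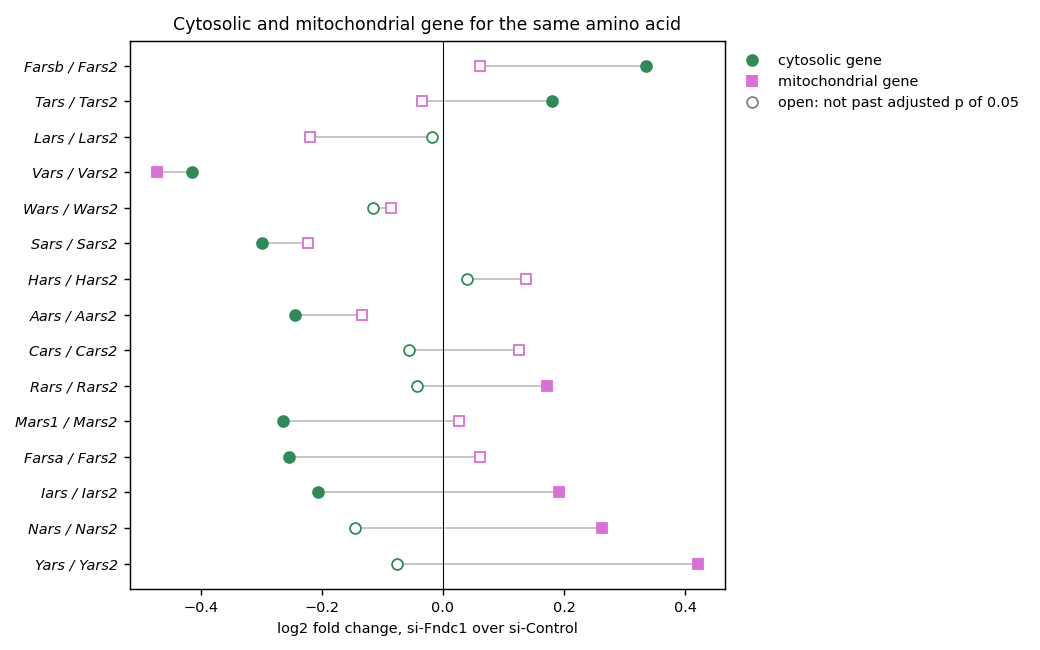
Log2 fold change (si-Fndc1 over si-Control) of the cytosolic gene (circle) and the mitochondrial gene (square) for the same amino acid in 15 pairs, sorted by their difference; filled symbols were called and open symbols were not. The cytosolic symbol lies left of the mitochondrial one in 11 pairs, and both symbols are filled for isoleucine and valine.

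The GC content of the transcript went along with the direction of the calls. Across the 37 synthetase genes the Spearman correlation of log2 fold change with GC content was -0.590 as a description, and across 11185 tested genes it was -0.523, where genes share the same libraries and are not independent. After the correction the values were -0.018 and -0.006. The 8 genes that fell had a GC content of 48.3% to 60.9% (median 53.4%), with *Vars* at 60.9% and *Vars2* at 58.6%. The 7 that rose had 42.0% to 49.0% (median 45.2%), with *Dars* at 42.0%. The median log2 fold change after the correction was -0.04 over the cytosolic genes and 0.09 over the mitochondrial genes, so that the median of the mitochondrial set changed sign.

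**Figure D5:**
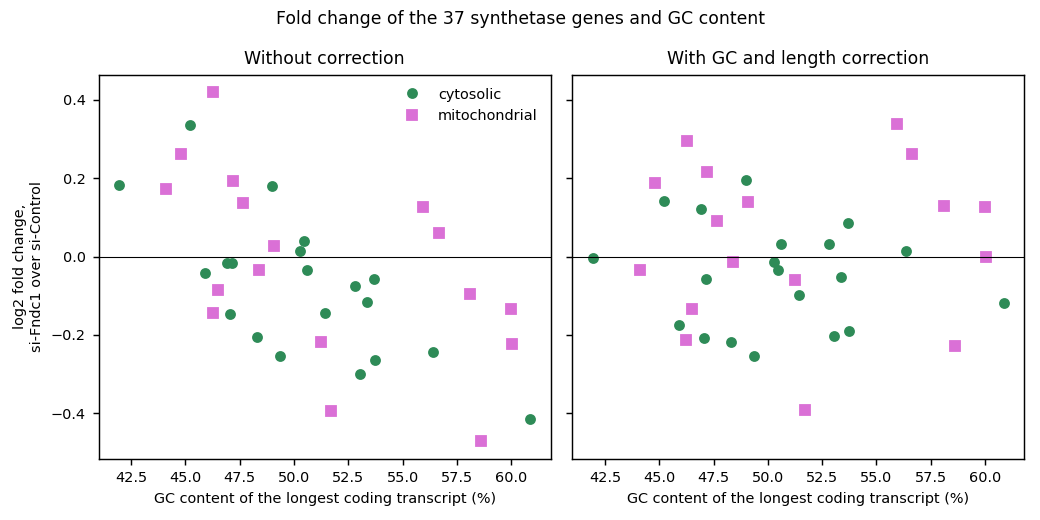
Log2 fold change (si-Fndc1 over si-Control) of the 37 synthetase genes against the GC content of the longest coding transcript, without (left) and with (right) the correction for GC content and length. Circles are cytosolic and squares mitochondrial genes; the Spearman correlation is -0.590 on the left and -0.018 on the right.

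Promoters were read from RefSeq (GRCm38.p6) as the 250 bases before and 50 bases after a start site, and 27 of the 37 genes were found there, 13 cytosolic and 14 mitochondrial. They were searched on both strands for 3 fixed strings of letters. TGATGNAA is the core of the element bound by ATF4, a factor known to induce synthetase genes when amino acids run short. It was found in 5 cytosolic genes (*Aars*, *Gars*, *Iars*, *Tars* and *Yars*) and 0 mitochondrial genes, and in 3.97% of 32851 promoters. CACGTG, the E-box bound by MYC and related factors, was found in 4 cytosolic genes (*Aars*, *Farsb*, *Iars* and *Tars*) and in *Ears2*, and in 7.15% of promoters. GCATGCGC, a core of the sites of NRF1, a regulator of nuclear genes for mitochondria, was found in 0 cytosolic and 3 mitochondrial genes (*Rars2*, *Vars2* and *Wars2*), and in 2.71% of promoters. No string contains another. A match describes the letters only. Genes with TGATGNAA were called in both directions, *Aars* and *Iars* lower and *Tars* higher, with *Gars* and *Yars* not called, and those with GCATGCGC likewise, *Vars2* lower, *Rars2* higher and *Wars2* not called. Stretches upstream of the start that hold such matches are shown because TGATGNAA was found in cytosolic and GCATGCGC in mitochondrial genes only, with the match in capitals, 5′ to 3′ along the gene, so that a match of the other strand is printed as its reverse complement. That of *Rars2* is 30 bases long, since its match lies before the RefSeq start but inside a transcript of the GENCODE annotation.
*Gars* (plus strand, chr6:55037851-55038000): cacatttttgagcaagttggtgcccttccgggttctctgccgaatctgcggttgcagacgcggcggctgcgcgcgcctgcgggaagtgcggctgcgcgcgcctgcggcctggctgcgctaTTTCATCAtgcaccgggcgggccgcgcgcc
*Tars* (minus strand, chr15:11399659-11399808): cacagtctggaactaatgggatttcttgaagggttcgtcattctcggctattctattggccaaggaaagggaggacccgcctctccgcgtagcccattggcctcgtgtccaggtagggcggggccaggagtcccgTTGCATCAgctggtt
*Rars2* (plus strand, chr4:34614895-34614924): cggccccgtgtGCATGCGCactccacactt
*Vars2* (minus strand, chr17:35667593-35667729): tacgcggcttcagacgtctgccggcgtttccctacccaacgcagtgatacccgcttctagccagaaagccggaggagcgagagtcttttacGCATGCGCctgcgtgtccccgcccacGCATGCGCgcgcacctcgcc
*Wars2* (plus strand, chr3:99140940-99141067): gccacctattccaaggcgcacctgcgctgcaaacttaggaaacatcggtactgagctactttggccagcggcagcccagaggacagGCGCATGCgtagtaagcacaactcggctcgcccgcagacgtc
In *Vars2* the NRF1 core occurs at 46 and again at 20 bases before the start site, and in *Gars* and *Tars* the ATF4 element begins 30 and 15 bases before it.

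Other genes that act on the same steps were counted for comparison. Of 13 genes related to synthetases or to charged transfer RNA, 1 rose and 1 fell, where 17.3% of all tested genes rose and 17.2% fell (also the background of the lists that follow). *Trnt1*, which adds the CCA end that synthetases charge in both compartments, rose from a mean of 7.29 ± 0.669 to 9.90 ± 0.484 FPKM (SD, n = 5 per group), with a log2 fold change of 0.45 (SE 0.06, edgeR adjusted p = 0.000408), and 0.23 after the correction (adjusted p = 0.0107). *Tarsl2*, another cytosolic threonyl-tRNA synthetase, fell from a mean of 1.43 ± 0.122 to 1.21 ± 0.0718 FPKM (SD, n = 5 per group), with a log2 fold change of -0.24 (SE 0.08, edgeR adjusted p = 0.0308). Its groups overlapped, and the call was lost under 10 of 19 alternatives, among them 7 of the 10 that leave out a library (adjusted p = 0.0521 to 0.0726 in these 7, without si-Control library 1, 2, 4 or 5 or si-*Fndc1* library 3, 4 or 5). *Gatb*, a subunit of the enzyme that forms mitochondrial glutaminyl-tRNA, had 2.38 ± 0.124 and 2.62 ± 0.133 FPKM (0.14, adjusted p = 0.0917). Of 18 tested genes of mitochondrial transfer RNA maturation, 3 rose and 1 fell. *Gtpbp3*, which modifies the wobble base, fell from a mean of 3.80 ± 0.278 to 2.72 ± 0.147 FPKM (SD, n = 5 per group), with a log2 fold change of -0.47 (SE 0.07, edgeR adjusted p = 0.000376), and -0.29 after the correction (adjusted p = 0.0121). *Cdk5rap1*, which modifies a base beside the anticodon, rose from a mean of 1.46 ± 0.118 to 1.94 ± 0.180 FPKM (SD, n = 5 per group), with a log2 fold change of 0.42 (SE 0.09, edgeR adjusted p = 0.00399). *Trmt10c*, a subunit of mitochondrial RNase P, rose from a mean of 6.25 ± 0.404 to 7.70 ± 0.461 FPKM (SD, n = 5 per group), with a log2 fold change of 0.31 (SE 0.06, edgeR adjusted p = 0.00271), and lost its call with the correction (0.07, adjusted p = 0.355). Of 11 tested mitochondrial translation factors, 1 rose and 0 fell. This was the elongation factor gene *Gfm1*, from a mean of 9.60 ± 0.570 to 11.8 ± 0.656 FPKM (SD, n = 5 per group), with a log2 fold change of 0.30 (SE 0.05, edgeR adjusted p = 0.00140), while *Guf1* (0.24, adjusted p = 0.0613) and *Mtif2* (0.10, adjusted p = 0.244) were not called.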

How the data were processed

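RNA was sequenced from C2C12 cells, 5 libraries of si-Control and 5 of si-*Fndc1*, and groups and replicate numbers were taken from the sample titles. The authors deposited 1 table with, for every gene and library, a raw read count, not normalized, and an FPKM value, which they list as 0.0001 where the count is 0. How the authors computed FPKM and whether counting used strand is not given in the sources used here. The paper's methods name TopHat, mm10 and htseq-count, the series text STAR and mm9, and the submitters' processing notes cutadapt 1.9, FastQC and GRCm39. The table names no build, and its coordinates are printed as listed. All 10 libraries were used, although the methods name fewer, and 0 value columns lacked a sample.

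Synthetase genes were found by their symbol among rows that list protein_coding among their transcript types; for 1 of them it is the only type. The members and the gene lists were chosen with earlier results of these data known. Values in every library are given for the 5 genes per compartment with the smallest p-values and for the most and least abundant gene of each. Those of *Farsa* were added for its unstable call. Of each further list other than the cell markers, the 3 genes with the smallest p-values are named; the markers named were chosen after their values were seen. Values of 1 mitochondrial gene, which stays in the fits and totals, and 1 promoter sequence are not reported here. Overlapping neighbours were chosen after their values were seen. *Ddit3* occurs on 2 rows and was left out of its list.

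Counts were tested with edgeR 4.0.16 in R 4.3.3 (TMM normalization, quasi-likelihood test, 13548 genes whose mean FPKM was 0.5 or more, no replicate term, Benjamini-Hochberg adjustment over all of them), and the test was checked on simulated data. A standard error is the log2 fold change over the root of its F statistic, and a 95% interval is 1.96 of them on either side. This interval is approximate and narrower than the quasi-likelihood test implies with 5 libraries per group. Alternatives were DESeq2 1.42.0 (named by the paper), limma 3.58.1 on log2(FPKM + 1) and log2(FPKM + 0.1), other normalization and filters, each library left out, the replicate number as a block, and a correction for GC content (longest coding transcript of NCBIM37) and for length implied by count and FPKM, fitted in each library with splines of 5 degrees of freedom on log2(count + 0.5). Within groups, all 20 pairs of libraries differed beyond counting noise (smallest chi-square over its degrees of freedom 37.3). This value pools the genes, and the part of counting noise in the spread of single genes was not tested. No batch is labelled. Columns of gene annotation were not used beyond symbols, types and coordinates. Further steps used Python 3.11.15 (pandas 2.3.3, numpy 2.4.6, scipy 1.17.1).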

Additional observations from a re-analysis of the deposited data

Results flagged for a closer look

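In 11 of the 74 groups of 5 libraries examined (37 synthetase genes, si-Control and si-*Fndc1*), the highest or lowest library stood apart from the other 4 by more than Dixon's critical ratio of 0.71, and chance flags about 1 in 20 groups. In si-Control these were *Dars* in library 2 (30.3 FPKM, the others 27.1 to 27.9), *Farsa* in library 5 (18.0, the others 13.4 to 14.6), *Yars* in library 5 (13.4, the others 15.5 to 16.1) and *Iars2* in library 1 (6.99, the others 7.87 to 8.15). They were also *Lars2* in library 1 (1.69 FPKM, the others 1.31 to 1.41), *Hars2* in library 2 (3.20, the others 3.60 to 3.72), *Pars2* in library 2 (0.447, the others 0.981 to 1.18) and *Tars2* in library 4 (2.40, the others 2.87 to 2.95). In si-*Fndc1* they were *Lars2* in library 5 (1.45 FPKM, the others 1.12 to 1.21), *Hars2* in library 5 (4.40, the others 3.72 to 3.88) and *Cars2* in library 1 (1.46, the others 1.08 to 1.19). Of the called genes, *Dars* and *Iars2* kept their calls without the library named, and *Farsa* did not.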

How the results depend on the processing

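Over the 37 synthetase genes, 657 of 725 alternative values kept direction and side of the threshold, 32 lost the call without a change of sign, 7 gained it and 29 changed sign. Those of *Aars*, *Dars* and *Rars2* that changed sign lost the call as well. With each library left out in turn, 3 cytosolic genes rose each time and 6 to 7 fell, 3 to 4 mitochondrial genes rose and 1 to 2 fell (2 without si-*Fndc1* replicate 5, where *Lars2* was called), and 4000 to 4627 of all genes were called. The median of the mitochondrial genes was lowest without si-Control replicate 4 (-0.0884) and highest when si-Control replicate 3 was left out (0.0104). With a mean FPKM of at least 5 only 2 mitochondrial genes were left, 2 rose and 0 fell, and their median was 0.1815. With the correction for GC content and length, 1 cytosolic gene rose, 2517 genes were called in all, and the mitochondrial median was 0.0903.

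Same-numbered libraries were not paired, since their deviations from the group means correlated at 0.02, -0.04, 0.06, -0.04 and -0.06, and library 3 alone correlated best with its own number in both groups. With the replicate number as a block 1 cytosolic gene rose and 3572 genes were called. With block and correction together 0 cytosolic genes rose and 3 fell, 1648 genes were called and the mitochondrial median was 0.0903.

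With the correction, and with correction and block, log2 fold changes turned for *Aars* (0.0151, 0.0144), *Aars2* (0.1273, 0.1237), *Cars* (0.0848, 0.0839), *Dars* (-0.0031, -0.0032), *Ears2* (0.1300, 0.1485), *Eef1e1* (-0.0706, -0.0684), *Eprs* (0.1225, 0.1210), *Gars* (-0.0140, -0.0123), *Hars* (-0.0345, -0.0343), *Mtif2* (-0.0438, -0.0453), *Qars* (0.0332, 0.0336), *Rars2* (-0.0345, -0.0347) and *Yars* (0.0317, 0.0318). Leaving out a library turned *Ears2* (-0.1713 to 0.0104), *Eprs* (-0.0367 to 0.0117), *Gars* (-0.0253 to 0.0356), *Lars* (-0.0373 to 0.0049) and *Mars2* (-0.0160 to 0.0789), none of them called. The causes were not tested beyond these settings. At 56332844 counts or more per library, libraries of a group still differed beyond counting noise, and the least abundant gene, *Pars2*, had 80 to 301 counts per library.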

Other observations

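Of the lists around the cytosolic synthetases, the known targets of ATF4 in the response to amino acid shortage gave 1 rise and 9 falls among 30 tested genes, where 17.3% of all tested genes rose and 17.2% fell, with a median log2 fold change of -0.10 (0.00 over all tested genes). The falls included amino acid transporter genes. *Slc7a5*, the light chain of the leucine transporter, fell from a mean of 67.4 ± 6.17 to 49.5 ± 5.02 FPKM (SD, n = 5 per group), with a log2 fold change of -0.44 (SE 0.08, edgeR adjusted p = 0.00197), and its groups did not overlap. *Slc7a1*, a transporter of arginine and lysine, fell from a mean of 9.23 ± 0.787 to 7.18 ± 0.487 FPKM (SD, n = 5 per group), with a log2 fold change of -0.36 (SE 0.07, edgeR adjusted p = 0.00199), and *Slc1a4*, a transporter of alanine, serine and cysteine, fell from a mean of 21.5 ± 0.448 to 19.1 ± 0.485 FPKM (SD, n = 5 per group), with a log2 fold change of -0.16 (SE 0.03, edgeR adjusted p = 0.00148). *Asns*, asparagine synthetase, was the gene that rose, named after its values were seen. With GC content and length corrected for, 2 of the 30 genes were called higher and 2 lower, where 12.2% and 10.3% of all genes were. *Slc7a5* was then at -0.29 (adjusted p = 0.0244) and *Slc1a4* at -0.09 (adjusted p = 0.0334), and *Slc7a1* was no longer called (-0.19, adjusted p = 0.0600). Several synthetase genes are themselves known ATF4 targets and were not part of this list.

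Of 6 tested cytosolic elongation factor genes, 1 rose and 1 fell, against the same shares of all genes. *Eef2*, which moves the ribosome along the mRNA, fell from a mean of 1170 ± 27.9 to 896 ± 22.3 FPKM (SD, n = 5 per group), with a log2 fold change of -0.38 (SE 0.03, edgeR adjusted p = 1.81e-05), and kept its call in all 20 alternatives, at -0.23 after the correction (adjusted p = 0.000125). *Eef1b2*, a subunit of the exchange factor that works with valyl-tRNA synthetase, rose from a mean of 59.1 ± 1.99 to 67.5 ± 2.10 FPKM (SD, n = 5 per group), with a log2 fold change of 0.20 (SE 0.03, edgeR adjusted p = 0.000841), and was not called after the correction (0.03, adjusted p = 0.512). *Eef1d*, another subunit, had 10.7 ± 0.491 and 11.3 ± 0.433 FPKM and was called only with the correction (0.29, adjusted p = 0.000803, against 0.09 and 0.0979 without it).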
